A study of Mus musculus with 4 samples.

Results

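The Hippo pathway genes described here are Yap1, Wwtr1, Tead1, Tead4, Lats2, Amotl1, Amotl2, Ajuba, Ankrd1 and Axl. They were chosen by symbol, and all 10 were found among the 54446 genes of the deposited table. RNA was sequenced from FACS-sorted mammary gland cells of wild type C57BL/6 mice, which were grown in 3D in Matrigel with EGF. The cells carried the label basal (the outer, contractile layer of the gland) or luminal (the inner, milk-producing layer), and each was cultured with DMSO as the vehicle or with 100 μM baicalin, a plant flavone glucuronide. Each of these 4 conditions had 1 library, so there were no replicates, no difference was tested, and a culture cannot be told apart from its treatment. The glands came from young female mice, virgin or at other stages, and how many mice stand behind each library is not given in the sources used here. Levels are FPKM, fragments scaled to exon length and to library size, as the authors deposited them.

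In the Hippo pathway, the kinases LATS1 and LATS2 phosphorylate the cofactors YAP (Yap1) and TAZ (Wwtr1) and keep them out of the nucleus. Unphosphorylated YAP and TAZ enter the nucleus and bind the TEAD factors, which carry them to DNA. Their target genes include Ankrd1 and Axl, and also Lats2, Amotl2 and Ajuba, whose products act back on the pathway. In the mammary gland, YAP and TAZ respond to cell shape, density and matrix stiffness, and TAZ is known for its link to basal cells. Their activity is set largely by phosphorylation and location, which RNA levels do not show.

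Between 19356127 and 20648773 fragments lay behind each library. All 10 basal markers, among them Krt5 and Acta2, were higher in the libraries labelled luminal than in those labelled basal, with either treatment. Their summed FPKM was 1662 with DMSO and 428 with baicalin under the basal label, against 5240 and 6332 under the luminal label. The 12 luminal markers summed to 4184 and 2877 under the basal label and to 1236 and 1032 under the luminal label, most of it from Krt8, Krt18 and Epcam. Of these 12 genes, 3 were higher under the luminal label with DMSO, namely the hormone receptor genes Esr1 (0.992 against 1.44 FPKM) and Pgr (1.08 against 4.81) and the factor gene Foxa1 (1.80 against 9.30), and with baicalin 1 was, Pgr (0.911 against 2.09). All of the basal markers and most of the luminal markers thus go against the cell names, these 3 go with them at low levels, and the names are used below only as labels. Of 10 fibroblast markers the sum was 48.6 and 16.8 FPKM under the basal label and 288 and 178 under the luminal label, most of it from Postn. Under the luminal label Pdgfra reached 6.30 FPKM with DMSO and Col1a1 2.74 with baicalin, while Dcn did not exceed 1.70 FPKM. Of these 10 genes, 4 were higher under the luminal label with DMSO and 9 with baicalin. The 10 immune markers summed to 17.0 and 54.3 FPKM under the basal label and to 5.96 and 19.9 under the luminal label, mostly Cd68 and Lyz2, with Ptprc below 0.02 FPKM in every library. The 8 endothelial markers summed to between 1.83 and 7.01 FPKM. In such bulk samples, fewer cells of a type and less RNA per cell cannot be told apart, and the part of these cells in the results below was not tested.

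TEAD factors bind DNA through a short core, written GGAATG on one strand and CATTCC on the other. In the 250 bases before the start of transcription, this core was found in 6 of the 8 genes with a promoter entry, namely Yap1, Wwtr1, Amotl2, Ajuba, Ankrd1 and Axl. Amotl1 and Lats2 had none, and Tead1 and Tead4 were not matched. The RefSeq starts used for Amotl1 (14615000) and Lats2 (57746123 and 57734418) lie inside the annotated genes, which have earlier starts. The bases before those earlier starts, at 14645056 and 57758388 on the minus strand, were not searched. Of all 27025 genes with a promoter entry, 14.4% had the core. Ankrd1, Axl, Lats2, Amotl2 and Ajuba are in the set as target genes, so its choice was not blind to TEAD binding. The shares were not compared by a test. The AP-1 core TGANTCA, which reads the same on either strand, was in 0 of the 8 genes and in 7.82% of all genes. The sequences below are RefSeq promoter sequence on GRCm38.p6, each read 5′ to 3′ on the strand of its gene. They are shown because they place the core beside these genes, and capitals mark the core.
Ankrd1, first site: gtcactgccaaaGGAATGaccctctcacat
Ankrd1, second site: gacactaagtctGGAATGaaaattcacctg
Axl: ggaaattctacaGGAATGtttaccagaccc
Yap1: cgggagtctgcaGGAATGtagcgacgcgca
Wwtr1: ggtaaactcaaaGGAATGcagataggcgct
Amotl2: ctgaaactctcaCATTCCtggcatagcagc
Ajuba, first site: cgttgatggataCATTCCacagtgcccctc
Ajuba, second site: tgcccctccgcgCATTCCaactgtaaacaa

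The Ankrd1 sites lie at chr19:36120037-36120066 and chr19:36119950-36119979 on the minus strand, with the core starting at positions -210 and -123 from the RefSeq start. In GENCODE release M21, all 250 bases of that window fall in an annotated untranslated region. The Axl site is at chr7:25788949-25788978, the Yap1 site at chr9:8004720-8004749 and the Wwtr1 site at chr3:57576029-57576058, each on the minus strand. The Amotl2 site is at chr9:102717727-102717756 on the plus strand, inside the annotated gene, which has an earlier start than the RefSeq start used here, and 136 of the 250 bases of that window are annotated as untranslated region. The Ajuba sites, at chr14:54577830-54577859 and chr14:54577808-54577837 on the minus strand, have cores starting at positions -186 and -164. These matches describe sequence, and binding was not measured.

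The 4 libraries held almost the same summed level of the cofactors YAP and TAZ. Yap1 (ENSMUSG00000053110, GRCm38 chromosome 9, 7931999 to 8004596) stood at 24.7 FPKM under the basal label with DMSO and at 19.6 once baicalin was added, and at 24.4 and 23.2 under the luminal label. Wwtr1 (ENSMUSG00000027803, chromosome 3, 57455649 to 57575910) had 35.7 and 41.5 FPKM under the basal label and 36.6 and 39.1 under the luminal label. Wwtr1 was therefore above Yap1 in every library, and it was higher with baicalin where Yap1 was lower. The sum of the 2 genes was 60.4 and 61.1 FPKM under the basal label and 60.9 and 62.3 under the luminal label, while the share of Yap1 in it went from 40.9% to 32.1% and from 40.0% to 37.3% with baicalin.

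**Figure D1:**
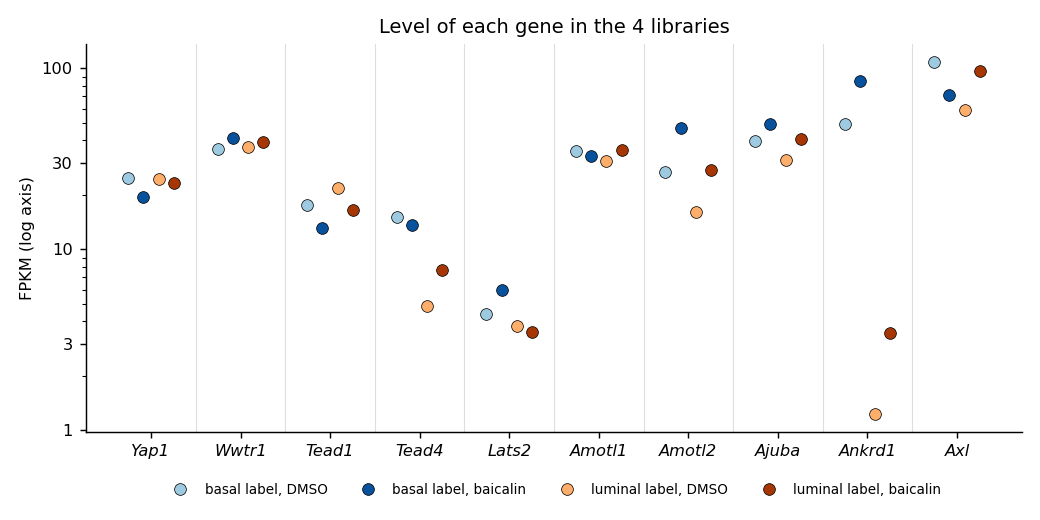
FPKM of each of the 10 genes on a log axis, 1 point per library, coloured by label and treatment. Ankrd1 spans from 1.23 to 85.0 FPKM and stands apart in its range, Axl has the highest single point at 109 FPKM, and Yap1, Wwtr1 and Amotl1 lie close together across the libraries.

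Tead1 and Tead4 encode DNA-binding partners of YAP and TAZ, and they were ordered differently across the libraries. Tead1 (ENSMUSG00000055320, chromosome 7, 112679318 to 112906807) measured 17.6 FPKM under the basal label with DMSO, 13.1 there with baicalin, and 21.8 and 16.5 under the luminal label. It was lower with baicalin under either label and higher under the luminal label with either treatment. Tead4 (ENSMUSG00000030353, chromosome 6, 128224288 to 128300823) had 15.2 and 13.6 FPKM under the basal label, and 4.90 and 7.74 under the luminal label. Both libraries labelled luminal were below both labelled basal.

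Lats2 (ENSMUSG00000021959, chromosome 14, 57689662 to 57758388), the kinase gene of the set, measured 4.38 FPKM under the basal label with DMSO, 5.99 there with baicalin, and 3.78 and 3.52 under the luminal label. Its paralog Lats1 was higher in every library, at 21.7 to 25.2 FPKM. Lats2 shares 2955 of its 6971 exon bases with Gm49361 on the same strand, which is listed at 0 in every library. How the counting treated fragments in the shared part is not given in the sources used here, so the level of Lats2 against other genes is uncertain. Yap1 shares 116 of 9257 exon bases with Gm20416 on the opposite strand, also listed at 0 throughout. The shared part of Lats2 and Gm49361 is identical in sequence, and apart from these 2 overlaps no other exon overlap or near-identical copy was found for the 10 genes.

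Amotl1 and Amotl2 encode angiomotin-like junction proteins that bind YAP. Amotl1 (ENSMUSG00000013076, chromosome 9, 14541966 to 14645056) measured 35.0 FPKM under the basal label with DMSO, 32.8 there with baicalin, and 30.9 and 35.3 under the luminal label, the narrowest range of the 10 genes. Amotl2 (ENSMUSG00000032531, chromosome 9, 102716672 to 102733418) had 26.9 and 46.6 FPKM under the basal label and 16.1 and 27.6 under the luminal label. Ajuba (ENSMUSG00000022178, chromosome 14, 54567472 to 54577558), whose LIM protein inhibits LATS kinases, had 39.7 and 49.4 FPKM under the basal label and 31.2 and 40.8 under the luminal label. Amotl2 and Ajuba shared 1 order of the libraries, with baicalin under the basal label highest and DMSO under the luminal label lowest.

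Ankrd1 (ENSMUSG00000024803, chromosome 19, 36111961 to 36120099), an ankyrin-repeat gene widely read as a YAP target, measured 49.5 FPKM under the basal label with DMSO, 85.0 there with baicalin, and 1.23 and 3.46 under the luminal label. It stood above 95.1% and 97.6% of the 17787 genes with an FPKM over 0 in all libraries under the basal label, and above 33.1% and 48.8% of them under the luminal label. Its FPKM rested on 1735 and 3042 fragments under the basal label and on 42 and 126 under the luminal label. These counts, and the intervals from them, assume an exon length of 1765 bases inferred from the FPKM values, against 2886 in GENCODE. The related genes Ankrd2 and Ankrd23 stayed below 0.6 FPKM in every library. Axl (ENSMUSG00000002602, chromosome 7, 25757273 to 25788705), a receptor tyrosine kinase of the TAM family, had 109 and 71.3 FPKM under the basal label and 59.0 and 96.3 under the luminal label. The libraries of the 2 labels overlapped for Axl, and the order of treatment was reversed between them.

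Ratios between libraries were given a 95% exact Clopper-Pearson interval from the fragments behind each FPKM. These intervals cover counting error only, and they are narrow because the genes had many fragments. The shares of all genes given below by interval include many genes with few fragments, whose wide intervals seldom leave out 1. Those shares are therefore not matched for level. A change is called larger than the threshold when log2((FPKM + 1)/(FPKM + 1)) passed 1 in either direction.

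With baicalin in the libraries labelled basal, none of the 10 genes passed the threshold. Over all 17787 genes, 2.15% were higher and 3.33% lower past it. By counting error alone, 5 genes were higher and 5 lower, where 28.1% of all genes were higher and 26.3% lower by the same measure. The median log2 change of the 10 genes was 0.06, beside 0.01 for all genes. The higher genes were Amotl2, Ankrd1, Lats2, Ajuba and Wwtr1, and the target gene Axl was the furthest on the lower side. Amotl2 had a ratio of 1.73 (1.66 to 1.81) and Ankrd1 one of 1.72 (1.62 to 1.82). Lats2 followed at 1.37 (1.23 to 1.52), Ajuba at 1.25 (1.19 to 1.31) and Wwtr1 at 1.16 (1.11 to 1.22). Axl had a ratio of 0.653 (0.634 to 0.673). Tead1 had 0.742 (0.710 to 0.775) and Yap1 0.793 (0.759 to 0.828). Tead4, at 0.891 (0.817 to 0.972), and Amotl1, at 0.935 (0.904 to 0.967), were nearest to no difference.

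With baicalin in the libraries labelled luminal, none of the 10 genes passed the threshold either, against 2.37% of all genes higher and 1.59% lower. The interval lay above 1 for 7 genes and below 1 for 2, and for Lats2 it held 1. The shares over all genes were 22.9% above and 28.7% below. The median log2 change was 0.28 for the 10 genes and -0.02 for all genes. Ankrd1 fell just short of the threshold, with an FPKM ratio of 2.81 (1.97 to 4.09). The change of Ankrd1 passed the threshold with a smaller or no added FPKM, after rescaling to TPM, and after centring. Amotl2 had a ratio of 1.72 (1.63 to 1.82), Axl of 1.63 (1.58 to 1.69) and Tead4 of 1.58 (1.38 to 1.81). Ajuba had 1.31 (1.24 to 1.38), while Amotl1 had 1.14 (1.10 to 1.18) and Wwtr1 1.07 (1.02 to 1.12). Tead1 was lower with a ratio of 0.757 (0.728 to 0.787), and Yap1 had 0.953 (0.914 to 0.994). Lats2 had a ratio of 0.930 (0.821 to 1.05).

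**Figure D2:**
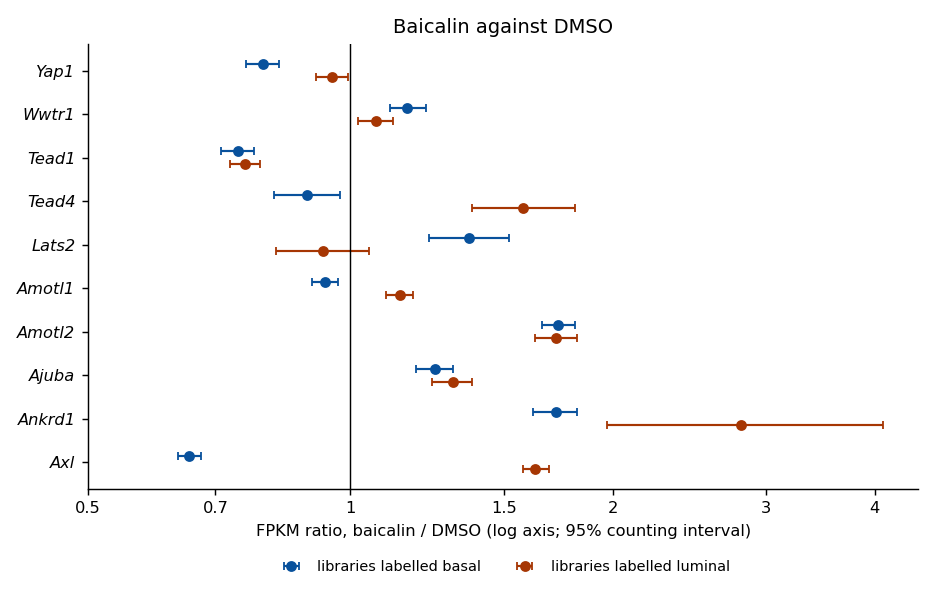
FPKM ratio of baicalin to DMSO on a log axis for each gene, in the libraries labelled basal (blue) and luminal (brown), with bars for the 95% counting interval. Amotl2 has ratios of 1.73 and 1.72, while Axl lies at 0.653 and 1.63, on either side of the line at 1.

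The responses of Amotl2, Ajuba and Tead1 to baicalin were close under the 2 labels, with log2 changes of 0.77 and 0.75, 0.31 and 0.38, and -0.40 and -0.38. Axl, Tead4 and Amotl1 had intervals on opposite sides of 1, lower with baicalin under the basal label and higher under the luminal label. These are 3 of the 10 genes, and 10.6% of 17781 genes had such opposite sides. That share includes many genes with few fragments, whose wide intervals seldom leave out 1, so it is not matched for level. The luminal minus basal difference in log2 change was 1.30 for Axl, 0.72 for Tead4 and 0.28 for Amotl1. Lats2 differed by -0.46, Yap1 by 0.25 and Ankrd1 by 0.23. The value for Ankrd1 depended on the added FPKM, at 0.64 with 0.1 added, 0.71 with none and 0.56 after rescaling to TPM. With 1 library per condition these differences could not be tested.

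Between the labels with DMSO, 2 of the 10 genes were lower past the threshold in the luminal-labelled library and none was higher, against 3.86% and 4.71% of all genes. Ankrd1 was 40.3-fold lower (29.7 to 56.1) under the luminal label, a log2 change of -4.50. Only 1 of the 17787 genes had a lower value on this scale, and without the added FPKM 8 genes did. Tead4 was 3.10-fold lower (2.75 to 3.52). The interval was below 1 for 7 genes and above 1 for Tead1 alone, with a ratio of 1.24 (1.19 to 1.29). Over all genes it was below 1 for 30.1% and above 1 for 30.5%. Axl had a ratio of 0.541 (0.524 to 0.558), Amotl2 of 0.597 (0.564 to 0.632) and Ajuba of 0.786 (0.744 to 0.832). Lats2 had 0.863 (0.766 to 0.973) and Amotl1 0.882 (0.852 to 0.913). Yap1, at 0.986 (0.946 to 1.03), and Wwtr1, at 1.02 (0.976 to 1.07), did not differ beyond counting error. Rescaling to TPM shifts the log2 ratios of this comparison by -0.108, and the 1 that is added then weighs less on low values. Under it Wwtr1 turned from 0.03 to -0.07. Ankrd1 went to -5.14 on that scale, and was at -5.33 in FPKM with nothing added.

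With baicalin, Ankrd1 alone was past the threshold between the labels, 24.6-fold lower (20.6 to 29.6) in the luminal-labelled library, where 2.99% of all genes were lower and 5.24% higher. The log2 change of Ankrd1, -4.27, was the lowest of the 17787 genes with 1 or 0.1 FPKM added, and 8 genes were lower with none added. The intervals of 6 genes lay below 1 and those of 4 above, against 33.6% and 25.8% of all genes. Lats2 had a ratio of 0.587 (0.525 to 0.656), Amotl2 of 0.593 (0.569 to 0.618) and Tead4 of 0.571 (0.514 to 0.634). Axl was on the other side than with DMSO, with a ratio of 1.35 (1.31 to 1.39). Tead1 had 1.26 (1.21 to 1.32) and Yap1 1.19 (1.13 to 1.24). Each library enters several of these comparisons, so the comparisons are not independent. Postn, Krt5 and many of the other markers given above also differed between the labels, with Postn and Krt5 higher under the luminal label. Their part in the difference of Ankrd1 was not tested.

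**Figure D3:**
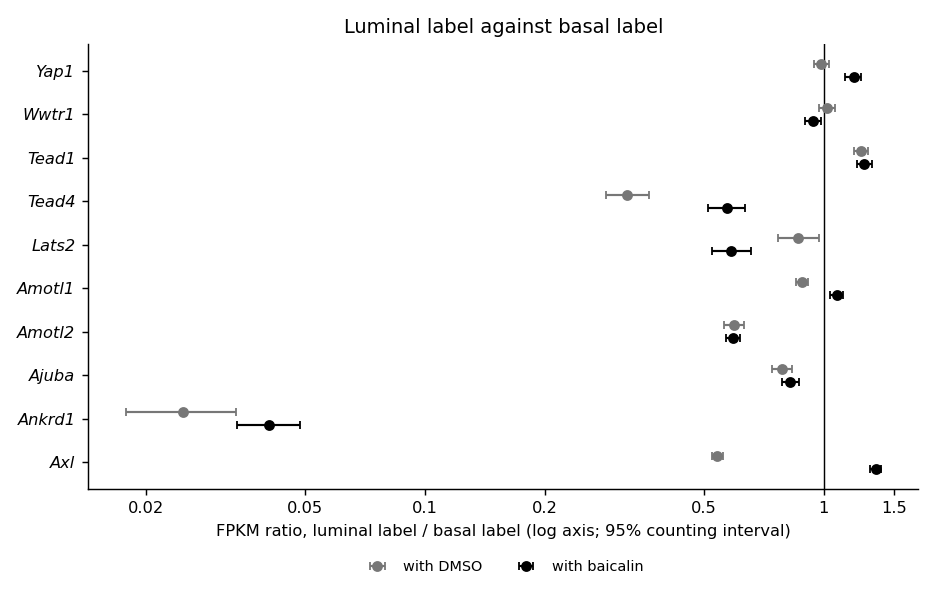
FPKM ratio of the luminal label to the basal label on a log axis for each gene, with DMSO (grey) and with baicalin (black), with bars for the 95% counting interval. Ankrd1 lies far to the left at 0.0248 and 0.0407, Tead4 moves from 0.322 to 0.571, and Axl crosses from 0.541 to 1.35.

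Set beside their paralogs, the TEAD genes differed in make-up between the labels. The summed FPKM of Tead1 to Tead4 was 58.1 with DMSO and 50.3 with baicalin under the basal label, and 42.5 and 36.5 under the luminal label. Tead2 had 22.1 and 20.7 FPKM under the basal label and 9.34 and 7.68 under the luminal label, where Tead1 was the leading member with 51.3% and 45.2% of the sum. The share of Tead4 was 26.2% and 26.9% under the basal label, and 11.5% and 21.2% under the luminal label. Tead3 was the lowest of the 4 genes under the basal label, with 3.16 and 2.94 FPKM.

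The third angiomotin gene, Amot, had 26.5 and 30.1 FPKM under the basal label but 4.69 and 3.53 under the luminal label. The family sum was 88.4 and 110 FPKM under the basal label and 51.7 and 66.5 under the luminal label. With baicalin, the share of Amotl2 went from 30.4% to 42.6% and from 31.1% to 41.5%. In the Ajuba family, Limd1 and Wtip did not exceed 15.7 and 5.77 FPKM, and Ajuba held 67.3% to 71.8% of the sum. Of 12 paralogs and ligands of the set, Gas6 under the basal label was the one to pass the threshold with baicalin, and the list's median log2 change was 0.21 under the basal label and 0.01 under the luminal label. Among the TAM receptors, Axl held 76.7% to 92.7% of the sum, beside Tyro3 with 8.24 to 16.1 FPKM. Gas6, a ligand of Axl, had 56.5 FPKM with DMSO and 118 with baicalin under the basal label, where Axl was lower, and 63.8 and 69.1 under the luminal label. Pros1, another TAM ligand, had 4.89 and 7.71 FPKM under the basal label and 20.6 and 20.7 under the luminal label.

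**Figure D4:**
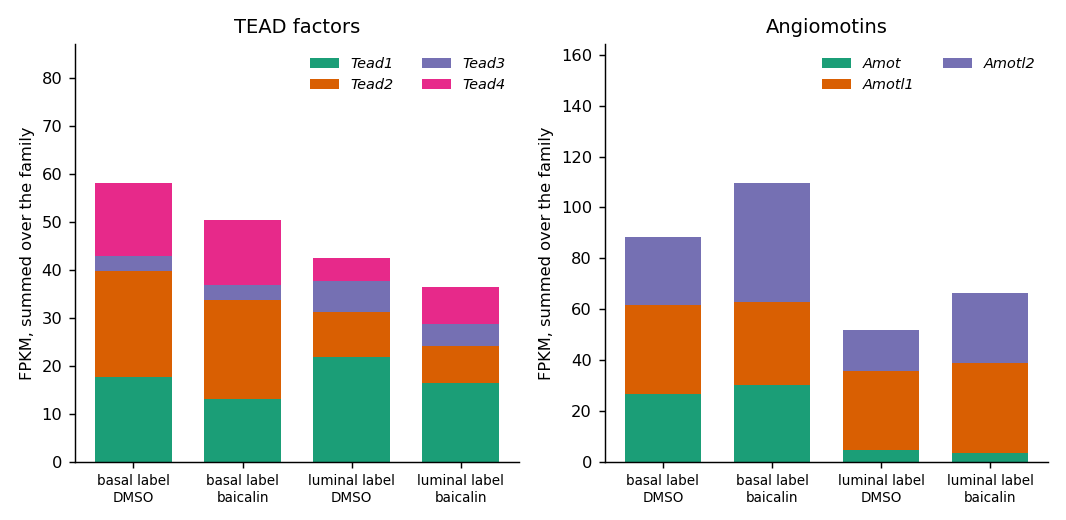
FPKM of the TEAD genes (left) and the angiomotin genes (right) in each library, stacked from 0. The TEAD sum falls from 58.1 to 36.5 FPKM from the first bar to the last, Amot is a thin layer under the luminal label, and Amotl2 is the layer that is larger with baicalin under either label.

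Further genes of the pathway were read from fixed lists. Of 20 core kinases and adaptors, such as the MST kinases and merlin, none passed the threshold in any comparison. Their median log2 change with baicalin was -0.03 under the basal label and -0.05 under the luminal label. The adaptor gene Frmd6 was higher under either label, from 28.9 to 40.9 and from 25.5 to 41.5 FPKM. Nf2, which encodes merlin, had 18.9 and 27.1 FPKM under the basal label, and Stk38 had 9.63 and 7.62 under the luminal label. Of 21 junction and polarity scaffolds, 15 were higher and 6 lower by sign under the basal label and 17 and 4 under the luminal label, with medians of 0.07 and 0.09, and none passed the threshold with baicalin. The largest changes were in 2 atypical cadherin genes and the polarity genes Dlg1 and Llgl2. Fat4 had 1.66 and 0.442 FPKM under the basal label and Fat1 109 and 155 under the luminal label, while Dlg1 had 26.3 and 39.8 under the basal label and Llgl2 5.27 and 8.80 under the luminal label.

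Of the other TEAD and Vestigial-like cofactor genes, 4 of 6 had an FPKM over 0 in all libraries. Vgll3, a TEAD cofactor gene, was the one to pass the threshold with baicalin, from 3.93 to 10.7 FPKM under the luminal label, and had 3.42 and 4.99 under the basal label. Vgll4, which encodes a TEAD-bound repressor, had 12.7 and 15.3 FPKM under the basal label and 26.9 and 18.8 under the luminal label. Of 11 genes for YAP degradation and 14-3-3 proteins, Sfn passed the threshold in opposite directions, from 152 to 75.5 FPKM under the basal label and from 176 to 383 under the luminal label. The others in this list stayed within it, led by Ywhah under the basal label, from 50.2 to 36.7 FPKM, and by Ywhag under the luminal label, from 29.5 to 52.7 FPKM.

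Of 18 other YAP target genes, 1 was higher and 2 lower past the threshold with baicalin under the basal label, and 2 were higher and none lower under the luminal label. Their median log2 change was 0.00 and 0.06. Gadd45a, a stress-induced growth arrest gene that also responds to p53, went from 30.9 to 141 FPKM and from 7.32 to 46.6 FPKM. Nt5e, which encodes the ectoenzyme CD73, went from 54.8 to 26.3 FPKM under the basal label and from 14.5 to 39.8 under the luminal label. Igfbp3 had 7.43 and 1.67 FPKM under the basal label, and 219 and 123 under the luminal label. Cyr61 and Ctgf, the matricellular genes most often read as YAP targets, were picked out after their values were seen. Ctgf had 68.2 and 106 FPKM under the basal label and 29.3 and 39.7 under the luminal label. Cyr61 had 187 and 206 FPKM under the basal label and 157 and 103 under the luminal label, so under the luminal label it was lower with baicalin and Ctgf was higher.

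**Figure D5:**
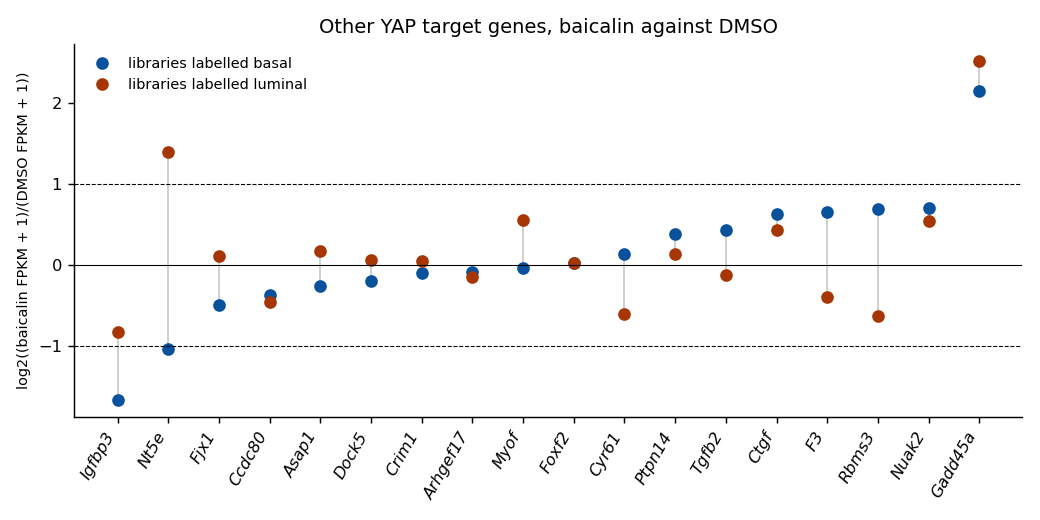
Log2 change with baicalin, with 1 FPKM added, of 18 YAP target genes outside the set of 10, under the basal label (blue) and the luminal label (brown), ordered by the basal-labelled change, with dashed lines at the threshold. Gadd45a is past the upper line in both at 2.15 and 2.52, and Nt5e is past opposite lines at -1.03 and 1.40.

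Ankrd1, Amotl2 and Tead4 had the widest ranges over the 4 libraries. For each, the genes with the most similar centred log2(FPKM + 1) profile were taken from 7601 protein-coding genes with a mean of at least 5 FPKM, by Euclidean distance over the 4 libraries. Amotl2 was nearest to Wbp2, at 0.12, and Tnfrsf10b, at 0.14. Tead4 was nearest to Nfkbie, at 0.10, and Dhx32, at 0.11. No gene was as near to Ankrd1, for which the closest were Dynap, at 1.32, and Foxj1, at 1.36. Such distances tend to grow with the range of a gene over the libraries. That range, in log2(FPKM + 1), was 5.27 for Ankrd1, 1.48 for Amotl2 and 1.46 for Tead4. Foxj1 had 33.7 and 29.3 FPKM under the basal label and 1.81 and 3.10 under the luminal label.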

How the data were processed

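The authors sequenced stranded libraries of poly(A) RNA, mapped the reads to GRCm38 (Ensembl release 94) by HISAT2, and deposited FPKM from featureCounts. The submitters' processing notes also name Bowtie 0.12.2 and mm8, without a role. The strand setting is not given in the sources used here. Changes were computed as log2((FPKM + 1)/(FPKM + 1)) on the 17787 genes above 0 FPKM in all 4 libraries, with a threshold of 1. The t-test named in the study's methods was not run, since each group had 1 library. Deposited FPKM multiplied by exon length (GENCODE release 21) fell on steps of 1 fragment, within 0.05 for 98.5% to 98.7% of low genes, which gave the depth. For Ankrd1, the length was the shortest that made all 4 values whole, 1765 bases against 2886 in GENCODE. Near-identical copies were sought with blastn 2.17.0 at 95% identity over 200 bases. The computation was tested on simulated data. Each list's 2 largest changes with baicalin, at 1 FPKM or more in a library, were named. The genes and lists were chosen with earlier results of these data known. Intervals came from scipy 1.17.1, tables from pandas 2.3.3 and numpy 2.4.6, and plots from matplotlib 3.10.9, under Python 3.11.15. Alternatives were other pseudocounts, filters, scalings and a threshold of 2.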

Additional observations from a re-analysis of the deposited data

Results flagged for a closer look

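Axl, Tead4 and Amotl1 are listed because their counting intervals for baicalin against DMSO lay on opposite sides of 1 under the 2 labels, lower under the basal label and higher under the luminal label. The luminal minus basal difference in log2 change was 1.30 for Axl, 0.72 for Tead4 and 0.28 for Amotl1. With 1 library per condition, the difference was not tested for any of them.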

How the results depend on the processing

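Under the basal label the number of the 10 genes past the threshold with baicalin was 0 in every alternative tried. This number could not change with the filters, which left the values of the 10 genes as they were, or with the stricter threshold of 2. Under the luminal label it was 0 higher as reported, and 1, Ankrd1, with a pseudocount of 0.1, with no pseudocount, rescaled to TPM, or centred on the median log2 ratio. The share of all genes higher past the threshold was then 5.91%, 8.76%, 4.04% and 2.54%, beside 2.37% as reported. With a threshold of 2, the number of genes lower under the luminal label with DMSO was 1 rather than 2. The count of 3 genes with intervals on opposite sides of 1 was the same after rescaling to TPM and after centring. Pseudocounts and filters do not enter these intervals, so they could not change the count. Of 300 log2 values of the 10 genes under the alternatives, 3 changed sign. Wwtr1 between the labels with DMSO was 0.03 as reported and -0.07 after rescaling to TPM. The response difference of Amotl2 was -0.02 as reported, 0.02 after rescaling and 0.01 after centring. Many of the 300 values could not change sign. The filters left them as they were, and a pseudocount cannot turn the sign of a ratio of 2 libraries. Of the 300 values, 19 moved by more than the counting error, all of them in the comparisons between the labels. They came from rescaling to TPM or, for Ankrd1, also from a smaller or no pseudocount. No paired analysis was possible because each group has 1 library and the labels carry no replicate numbers. By the length inferred for Ankrd1, the values rest on 42 fragments or more at this depth. Counting error therefore limits Ankrd1 under the luminal label most, and the spread between cultures is unknown.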
